A study of Mus musculus with 52 samples.

Results

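The acute phase genes described here were Serpina3n, the 3 serum amyloid A genes Saa1, Saa2 and Saa3, Lcn2, the orosomucoid genes Orm1 and Orm2, Hp, Hpx and Apcs, 10 of the 39144 genes listed in at least 1 tissue. They were found by gene symbol in the expression tables of wild-type and Tug1-/- mice. These genes were chosen by name with group means of the same tables already known, among them those of Serpina3n in testes. All of their levels and ratios are therefore descriptions and carry no test.

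Tug1 is a long noncoding RNA gene. The Tug1-/- allele keeps the start of the gene (its promoter and exon 1) and carries lacZ where the rest used to be. The tables rest on 46 of the 52 samples of the series, all male: 4 wild-type, 4 Tug1-/- and 3 rescue testes, 3 wild-type and 2 Tug1-/- prostates, and 3 samples per genotype of liver, spleen, heart, eyes and embryonic fibroblasts (MEFs, cultured to passage 2). A brain comparison made from libraries outside the series was also listed, and testes of F1 hybrid mice (6 samples) were not analysed here. The labels of the 46 samples give a C57BL/6J/129S6 background throughout. For the 6 other sample types of the series it was N3-C57BL/6J without Neo in both genotypes. In testes the wild-type label was C57BL/6J without Neo, whereas Tug1-/- and rescue mice were both labelled C57BL/6J with Neo and LacZ, so the label and the genotype cannot be told apart there. Rescue mice were Tug1-/-, carried tg(Tug1) and CAGs-rtTA3 and were fed doxycycline. Their transgene encodes a Tug1 isoform without the 5′ region, driven by a transactivator under the broadly active CAG promoter.

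Acute phase proteins are plasma proteins that the liver secretes in larger amounts after infection or injury. Interleukin-6, interleukin-1 and tumour necrosis factor, released mainly by macrophages, act on hepatocytes through the transcription factors STAT3, C/EBP and NF-kappaB. Several of the genes are also used elsewhere: Lcn2 in neutrophil granules and epithelia, Hp in neutrophils and fat, Orm1 in fat, Saa3 in macrophages and fat, and Serpina3n in astrocytes.

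The region upstream of a gene's start is where these factors can bind, so promoter sequence of 4 members that hold a motif match is shown first. RefSeq promoters (build GRCm38.p6, from 250 bases before to 50 bases after the start) were at hand for Serpina3n, Saa1, Saa2, Saa3, Lcn2, Orm2, Hpx and Apcs, and not for Hp and Orm1. The C/EBP motif TTNNGCAA, searched on both strands, was found in 6 of these 8 promoters and in 10.8% of all 32851 promoters. The STAT3 motif TTCCNGGAA (1.15% of all promoters) and the NF-kappaB motif (GGGANN directly followed by TTCC, 1.47%) were found in 0 of the 8. A match is a description of letters and not a binding site. Bases -250 to -25 of Saa3 (chr7:46715701-46715926, minus strand), counted back from the start and upstream of its annotated exons, and bases -220 to -200 of Lcn2 (chr2:32387939-32387959, minus strand) are written 5′ to 3′ along the gene, with the motif in capitals. The RefSeq start of Lcn2 differs from the deposited one and lies inside the deposited gene, and so does this stretch. The RefSeq starts of Saa3 and Saa2 also lie inside the deposited genes, but the stretches shown for them do not. All distances are counted from the RefSeq start.
Saa3: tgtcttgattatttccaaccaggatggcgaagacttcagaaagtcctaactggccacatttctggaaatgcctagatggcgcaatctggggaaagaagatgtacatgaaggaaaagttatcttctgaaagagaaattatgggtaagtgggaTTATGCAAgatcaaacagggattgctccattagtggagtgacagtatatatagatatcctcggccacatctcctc
Lcn2: cctgTTGCTCAAccttgcaca

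Saa1 and Saa2 are neighbours on chromosome 7 that are transcribed away from each other. Bases -220 to -120 of Saa1 (chr7:46743100-46743200, minus strand) and of Saa2 (chr7:46751613-46751713, plus strand) are shown because these 2 liver genes are nearly identical there, again with the C/EBP motif in capitals.
Saa1: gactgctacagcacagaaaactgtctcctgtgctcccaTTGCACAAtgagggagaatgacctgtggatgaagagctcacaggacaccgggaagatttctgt
Saa2: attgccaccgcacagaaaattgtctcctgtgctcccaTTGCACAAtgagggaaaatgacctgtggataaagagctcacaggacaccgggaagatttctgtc
With Saa1 shifted by 1 base, 94 of 100 compared bases (94.0%) were identical. In Saa1 and Saa2 the motif read TTGCACAA, in Lcn2 TTGCTCAA, in Hpx TTGCTGAA and in Orm2 TTGCGCAA, and in Saa3 it read TTATGCAA and began 99 bases before the start. No match lay in the windows of Serpina3n and Apcs.

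All values below are the authors' group means of TPM, a share of all transcripts that is scaled to transcript length, so that levels of different genes can be set side by side. The files list no value per sample and the authors' own statistics were not used, so no spread between replicates is given and no difference was tested. A ratio is log2((mean TPM + 0.1)/(mean TPM + 0.1)) of the second group over the first, folds are on this same scale, and a gene counts as past the fold when this exceeds 1.5-fold in either direction and the gene reaches 1 TPM in at least 1 of the groups. Of 61 listed values of the 10 genes in the 8 tissues, 43 reached that minimum, and 17 were higher and 4 lower in Tug1-/- samples by more than 1.5-fold. Over all genes, pooled in the same way, 3.49% of 133572 values were higher and 3.70% lower. A gene below 1 TPM in 1 group was counted only where its other group reached 1 TPM, which favours genes that differ. These counts therefore do not describe all members.

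The targeted gene followed the labels. Tug1 lay between 10.1 TPM (liver) and 57.5 TPM (eyes) in wild-type samples, between 0.00832 TPM (liver) and 0.885 TPM (testes) in Tug1-/- samples, and at 1.60 TPM in rescue testes. In each tissue 3 of 3 identity markers (protamines and Tnp1 in testes, Alb, Apoa1 and Cyp2e1 in liver, and so on) reached 1 TPM. The testes groups differed in RNA of the epididymis, the duct attached to the testis: its 5 markers summed to 2383 TPM in wild-type, 774 TPM in Tug1-/- and 1.66 TPM in rescue samples. Over all genes with the minimum, the median log2 ratio was -0.11 in eyes, 0.10 in heart and -0.11 in spleen, and nearer 0 in the other comparisons. In bulk tissue, fewer cells of a type and less RNA per cell cannot be told apart.

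Liver held the highest wild-type level of 9 of the 10 genes. Hpx, the scavenger of free haem, stood at 5038 TPM in wild-type liver and next highest at 2.53 TPM in MEFs. Hp, which encodes the haemoglobin-binding haptoglobin, stood at 2478 TPM in liver and 29.9 TPM in heart. Orm1, a plasma carrier of drugs and lipids, stood at 1595 TPM in liver and 3.16 TPM in eyes. Serpina3n, a secreted inhibitor of serine proteases, was the most widely used member: it reached 1 TPM in 8 of 8 tissues, with 304 TPM in liver, 98.0 TPM in eyes, 32.1 TPM in brain, 29.2 TPM in spleen, then heart, and 6.22 TPM in prostate, 4.10 TPM in testes and 1.96 TPM in MEFs. Apcs, the pentraxin serum amyloid P, stood at 107 TPM in liver and 0.148 TPM in spleen and was not listed elsewhere. Lcn2, the siderophore-binding lipocalin, was the exception: its wild-type mean was 219 TPM in testes, against 16.4 TPM in spleen and 1.32 TPM in liver. The neighbours in these orders were not tested against their spread.

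**Figure D1:**
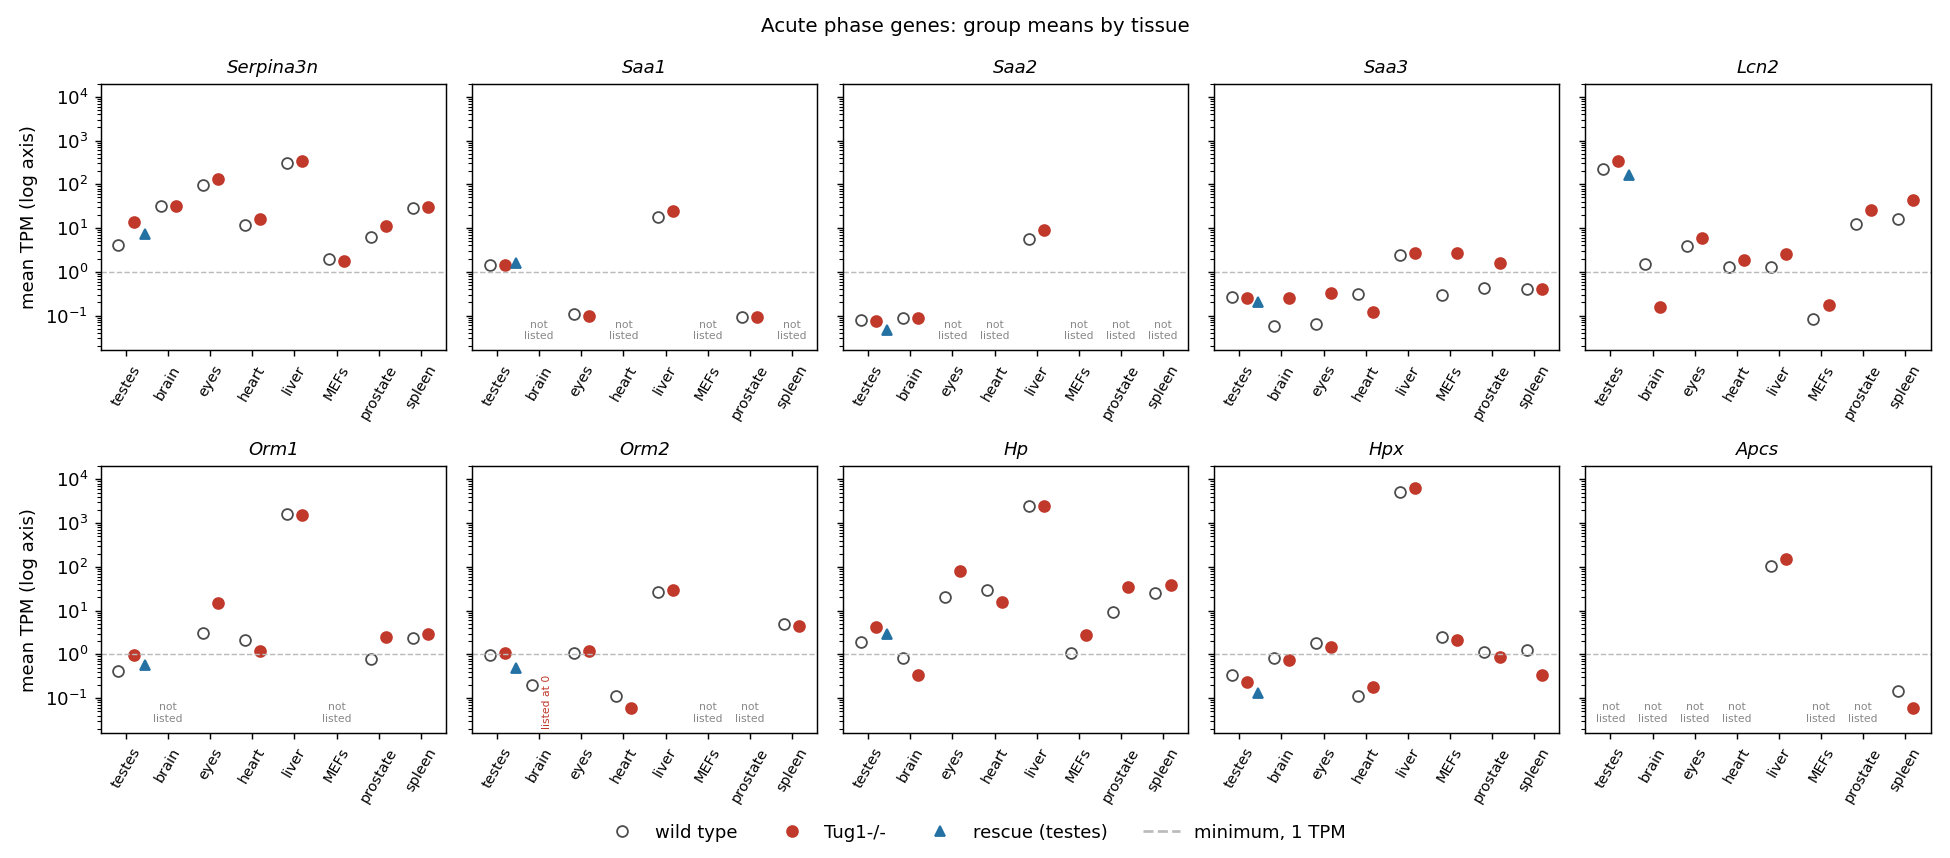
Mean TPM (log axis) of the 10 acute phase genes in 8 tissues, for wild-type (open circles), Tug1-/- (filled circles) and, in testes, rescue samples (triangles). Liver has the highest circles in every panel except that of Lcn2, whose highest values are in testes (219, 342 and 159 TPM).

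In liver, the organ of the acute phase response, the abundant members differed little between genotypes. Hpx was at 5038 TPM in wild-type and at 6324 TPM in Tug1-/- liver, Hp at 2478 and 2526 TPM, and Orm1 at 1595 and 1534 TPM. Serpina3n (304 and 337 TPM), Apcs (107 and 150.5 TPM), Orm2 (27.1 and 30.0 TPM) and Saa3 (2.40 and 2.70 TPM) were likewise within 1.5-fold. The members past the fold were 2 of 10, both higher in Tug1-/- liver: Saa2, an apolipoprotein of high-density lipoprotein, at 5.62 and 8.93 TPM (log2 ratio 0.66), and Lcn2 at 1.32 and 2.54 TPM (0.90). Saa1, its close relative, went from 18.2 to 24.4 TPM (0.42). Of all 12121 genes with the minimum, 3.37% were higher and 2.65% lower past the fold. The median log2 ratio was 0.25 over the 10 members and 0.01 over all genes.

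The genes that act upstream of these in liver were mixed. Il1b, which encodes interleukin-1 beta, was lower in Tug1-/- liver (5.47 and 2.53 TPM), and Il6 and Tnf were below 1 TPM in both genotypes. Il6ra, the interleukin-6 receptor, was at 14.5 and 26.0 TPM, and the C/EBP genes Cebpd (1.39 and 3.26 TPM) and Cebpb (29.6 and 47.0 TPM) were also higher. Among 22 other positive acute phase genes, 5 of 19 with the minimum were higher and 1 lower, including the metallothioneins Mt2 (4.04 and 13.0 TPM) and Mt1 (26.8 and 66.6 TPM), the interleukin-1 antagonist Il1rn (0.909 and 2.03 TPM), and Orm3 in the other direction (6.81 and 4.04 TPM). None of 11 negative acute phase genes, those whose plasma proteins decline in the acute phase, was past the fold (0 of 11). Glucocorticoids act with cytokines on these promoters, and 3 of 6 glucocorticoid-induced genes were higher: Zbtb16 (2.20 and 8.02 TPM), Fkbp5 (6.78 and 16.1 TPM) and Tsc22d3 (48.8 and 109 TPM). Macrophage markers summed to 277 TPM in wild-type and to 439.9 TPM in Tug1-/- liver, with 3 of 8 past the fold, and neutrophil markers to 3.77 and 5.46 TPM. Their part in the liver values was not tested.

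In testes, 3 of the 5 members with the minimum were higher in the Tug1-/- mean and 0 lower, where 2.75% of 22378 genes were higher and 3.51% lower. Serpina3n was at 4.10 TPM in wild-type, 13.9 TPM in Tug1-/- and 7.18 TPM in rescue testes, and Tug1-/- over wild type was 3.32-fold with 0.1 TPM added to both means. Hp followed the same order, at 1.90, 4.30 and 2.92 TPM. Lcn2 was at 219, 342 and 159 TPM, so that its rescue mean lay below that of wild type. Saa1 was at 1.42, 1.46 and 1.60 TPM. Orm2 was at 0.963, 1.06 and 0.500 TPM. Orm1 (0.419, 0.977 and 0.573 TPM), Hpx (0.333, 0.231 and 0.130 TPM), Saa3 (0.262, 0.258 and 0.199 TPM) and Saa2 (0.0796, 0.0754 and 0.0472 TPM) were below the minimum, and Apcs was not listed.

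The rescue comparisons share the Tug1-/- and wild-type libraries with the first one and with each other, so their values are given side by side. The transgene, CAGs-rtTA3 and doxycycline came together in rescue mice, and the testes groups also differed in epididymis RNA. These cannot be told apart in the rescue values. Of the 5 members with the minimum, rescue over Tug1-/- had 0 higher and 3 lower: Lcn2 (log2 ratio -1.10), Orm2 (-0.95) and Serpina3n (-0.94), where 1.42% of 22180 genes were higher and 3.22% lower. Hp had a log2 ratio of -0.54 there. Orm2 (1.06 TPM in Tug1-/- and 0.500 TPM in rescue) reached the minimum through the Tug1-/- group alone. In rescue over wild type it was below the minimum (0.963 TPM in wild type). Rescue over wild type had 2 of 4 members higher and 0 lower, Serpina3n (0.79) and Hp (0.59), against 2.79% higher and 5.14% lower of 22393 genes. With log2 ratios centred on the median of all genes, Hp was at 0.55 in rescue over wild type and no longer past the fold.

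Other acute phase genes differed beside them in testes. Timp1, an inhibitor of matrix metalloproteinases, was at 2.34 TPM in wild-type, 18.3 TPM in Tug1-/- and 15.1 TPM in rescue testes. Lrg1, a leucine-rich plasma glycoprotein, was at 6.10, 23.4 and 15.2 TPM. In the list of other positive acute phase genes 4 of 13 with the minimum were higher and 1 lower in Tug1-/- testes (2.75% and 3.51% of all genes), the lower one being the fibrinogen chain gene Fga (1.02 and 0.243 TPM). Of 10 genes of the Serpina3 cluster on chromosome 12, 6 reached the minimum and 3 were higher, Serpina3i (0.578 and 1.55 TPM), Serpina3h (0.612 and 1.18 TPM) and Serpina3a (42.0 and 66.0 TPM). Il6 and Tnf were below 1 TPM in every testes group, and Socs3, the feedback inhibitor of this pathway, was higher in Tug1-/- testes (log2 ratio 0.65). Socs3 was within the fold in every other tissue, among them MEFs (17.6 and 17.8 TPM) and liver (5.07 and 3.98 TPM). The inducing cytokines with the minimum in testes were within the fold. They were Il11 (7.81 TPM in wild type, 8.04 in Tug1-/-, 8.14 in rescue), Il1a (6.61, 7.56 and 7.31 TPM) and Il1b (3.94, 3.59 and 3.53 TPM).

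Cell type markers also differed among the testes groups. Of the epididymis markers, Lcn5 (680.0 TPM in wild type, 0.0155 in Tug1-/-, 0.132 in rescue), Lcn8 (799, 0.244 and 0.160 TPM) and Lcn9 (444, 0.197 and 0.410 TPM) were near 0 outside wild type. Crisp1, named after its values were seen, was at 427, 760.5 and 0.348 TPM. Leydig cell markers summed to 483, 742 and 639 TPM, with Insl3 at 56.9, 144 and 65.5 TPM. Ltf, the lactoferrin gene, which epithelia and neutrophils express, was at 3.46, 30.9 and 0.0316 TPM, and the neutrophil markers, Ltf included and 9 of 10 listed, summed to 6.89, 35.2 and 3.58 TPM. Adipocyte markers summed to 36.8, 48.0 and 39.8 TPM, with 4 of 7 higher in Tug1-/- testes and Adipoq at 23.7 TPM in wild type and 23.3 in Tug1-/-, macrophage markers to 113, 149 and 149 TPM, and mesothelium markers to 13.9, 11.2 and 5.91 TPM. The part of these cells in the levels of Lcn2, Serpina3n and Hp was not tested.

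**Figure D2:**
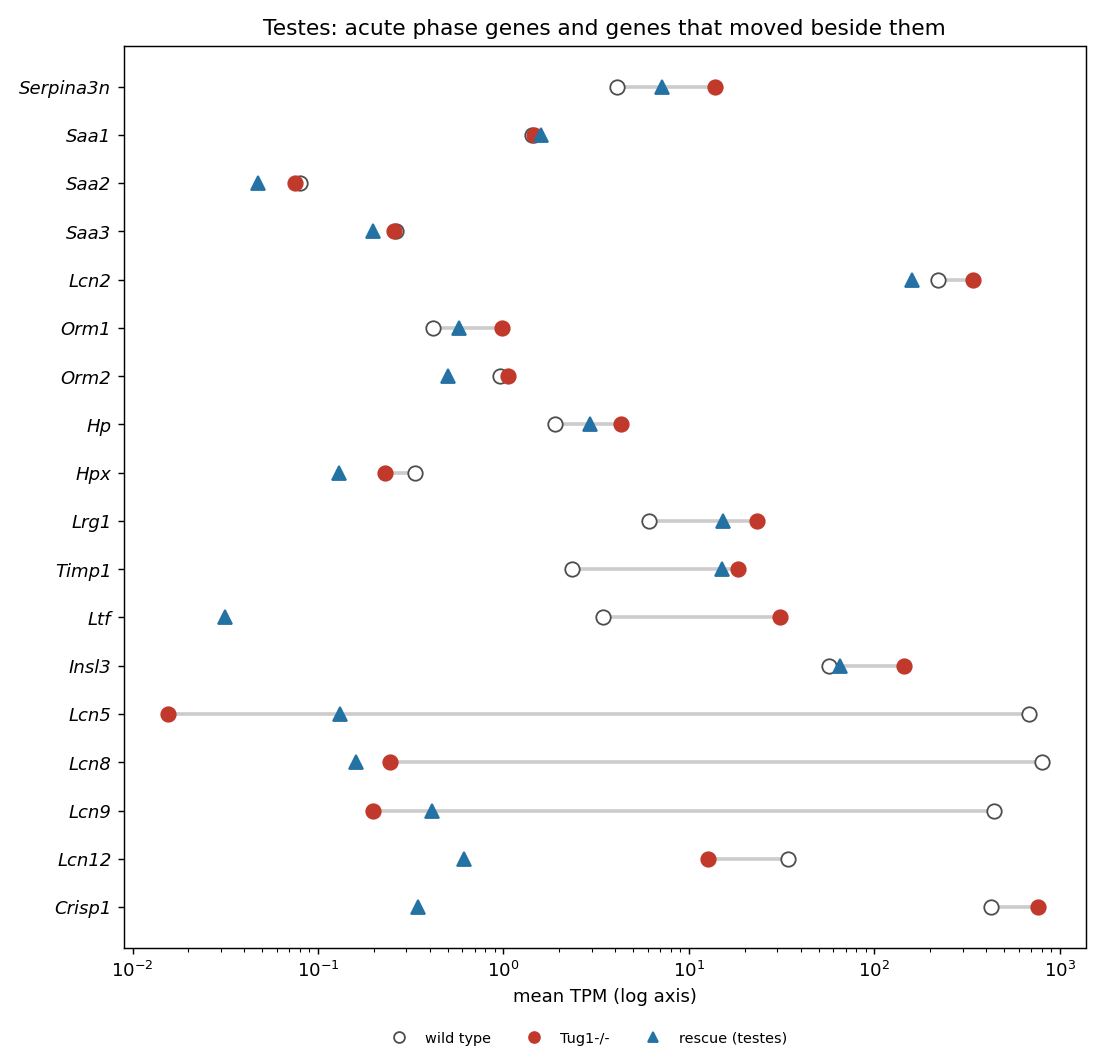
Mean TPM (log axis) in wild-type (open circles), Tug1-/- (filled circles) and rescue testes (triangles) for the 9 listed acute phase genes, for Lrg1, Timp1, Ltf and Insl3, and for the 5 epididymis markers. Serpina3n and Hp have the rescue mean between the others, and Lcn2 has it below both (159 TPM).

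In prostate, 5 of 6 members with the minimum were higher in the Tug1-/- mean and 0 lower, where 5.32% of 15547 genes were higher and 2.67% lower. Hp was at 9.24 TPM in wild-type and at 35.2 TPM in Tug1-/- prostate, a 3.78-fold difference. Lcn2 was at 12.6 and 25.4 TPM, Serpina3n at 6.22 and 11.4 TPM, Orm1 at 0.787 and 2.53 TPM, and Saa3 at 0.432 and 1.58 TPM. Orm1 and Saa3 reached the minimum through the Tug1-/- group alone. Hpx, at 1.11 and 0.866 TPM, was the member with the minimum that was not past the fold, and Saa1 was at 0.0946 TPM in both genotypes. The mean normalised counts behind Orm1 (15.3) and Saa3 (30.3), the authors' means over all samples of the tissue, were low, and the Tug1-/- mean rests on 2 samples.

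In eyes, 3 of 6 members with the minimum were higher and 0 lower, where 3.19% of 19709 genes were higher and 4.68% lower. With the ratios centred on the median of all genes, these shares were 4.18% and 3.24%, and the same counts of members were found. Hp was at 20.9 TPM in wild-type and at 81.1 TPM in Tug1-/- eyes, and Orm1 at 3.16 and 15.3 TPM, a 4.71-fold difference. Lcn2 was at 3.87 and 6.08 TPM. Serpina3n, at 98.0 and 131 TPM, remained within 1.5-fold, as did Orm2 (log2 ratio 0.17) and Hpx (1.78 and 1.44 TPM). Saa3 was at 0.0640 and 0.320 TPM, below the minimum, as was Saa1 (0.108 TPM in wild type).

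Heart went the other way for the same pair of genes. Hp was at 29.9 TPM in wild-type and at 15.8 TPM in Tug1-/- heart, and Orm1 at 2.09 and 1.19 TPM. They were the 2 of 4 members with the minimum that were lower, and 0 were higher, where 2.08% of 14004 genes were higher and 2.49% lower. Centred on the median of all genes, these shares were 1.41% and 3.21%, with the same counts of members. Serpina3n, at 16.2 TPM in Tug1-/- heart, had a log2 ratio of 0.42, and Lcn2 was at 1.29 and 1.90 TPM. Saa3 (0.307 and 0.123 TPM), Hpx (0.114 and 0.178 TPM) and Orm2 (0.112 and 0.0610 TPM) were below the minimum.

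Adipocyte markers differed in the same direction as Hp and Orm1 in these tissues. The 7 markers summed to 209 TPM in wild-type and to 875 TPM in Tug1-/- eyes and to 107 and 529.8 TPM in prostate, and 7 of 7 were higher past the fold in both. Among them Cfd, which encodes complement factor D, was at 89.2 and 492 TPM in eyes and at 66.2 and 361 TPM in prostate, and Adipoq, the adiponectin gene, at 30.7 and 91.4 TPM and at 9.65 and 42.7 TPM. In heart the sum was 496 TPM in wild-type against 398 TPM in Tug1-/- samples, and 6 of 7 markers were lower, among them Adipoq (32.2 and 14.5 TPM) and Plin1 (10.3 and 4.66 TPM), with Fabp4 at 288 and 286 TPM. In liver, where Hp and Orm1 differed little, the 3 listed markers summed to 7.57 and 8.59 TPM. In MEFs, where Hp was higher, they summed to 0.893 and 0.940 TPM, and Adipoq, Plin1, Lep and 2 others were not listed. In spleen, where Hp was higher, Adipoq was lower (1.69 and 0.762 TPM), and the other markers were within the fold or below the minimum. Cebpa, the C/EBP gene of hepatocytes and fat cells, was at 16.4 and 30.6 TPM in eyes and 6.28 and 13.9 TPM in prostate. In heart Cebpa was within the fold, at 11.6 and 9.27 TPM. The part of fat in the Hp and Orm1 values of eyes, prostate, heart and spleen was not tested.

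**Figure D3:**
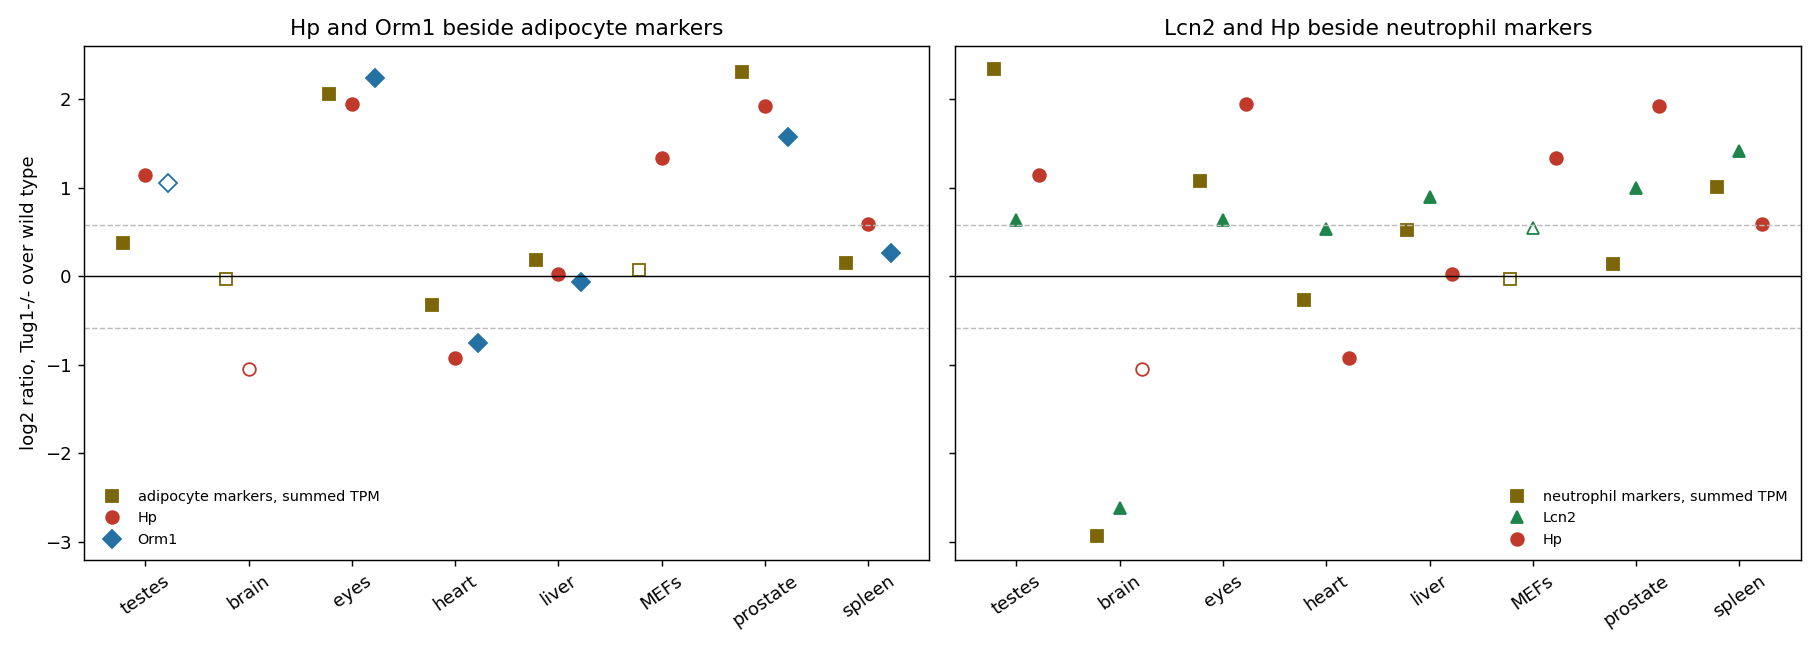
Log2 ratio of Tug1-/- over wild type in 8 tissues for Hp and Orm1 beside the summed TPM of 7 adipocyte markers (left), and for Lcn2 and Hp beside that of 10 neutrophil markers (right). Open symbols are below 1 TPM in both genotypes, dashed lines mark 1.5-fold, and Hp, Orm1 and the adipocyte sum are all above 0 in eyes and prostate and all below 0 in heart.

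Few inducing cytokines reached the minimum in these 3 tissues. None of the 8 did in prostate, and 3 did in eyes with 0 past the fold. In heart Il1b alone did, and it was lower, as Hp and Orm1 were, at 4.32 TPM in wild-type and at 1.92 TPM in Tug1-/- samples. The C/EBP genes Cebpb (9.63 and 16.1 TPM) and Cebpd (5.83 and 9.40 TPM) were higher in Tug1-/- heart. The part of these genes in the heart values was not tested. Glucocorticoid-induced genes were higher in heart (5 of 6), prostate (4 of 6) and eyes (2 of 6). Zbtb16 was at 8.87 and 27.5 TPM and Fkbp5 at 4.83 and 14.1 TPM in heart. The part of glucocorticoids in the member values of heart, prostate and eyes was not tested. Neutrophil markers in eyes were mixed: S100a8 (1.10 and 4.20 TPM), S100a9 (5.22 TPM in wild type, log2 ratio 1.41) and Ltf (3.52 and 7.56 TPM) were higher, Camp was lower (2.35 and 1.40 TPM), and the 10 markers summed to 13.5 and 28.8 TPM. The 3 listed in prostate summed to 4.80 and 5.30 TPM, and macrophage markers to 252 and 394 TPM in prostate.

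In spleen, 2 of 6 members with the minimum were higher and 1 lower, where 5.40% of 17260 genes were higher and 5.07% lower. Centred on the median of all genes, the shares were 6.77% and 3.22%, with the same counts of members. Lcn2 was at 16.4 TPM in wild-type and at 44.1 TPM in Tug1-/- spleen, a 2.68-fold difference. Hp was at 25.2 and 38.0 TPM, a log2 ratio of 0.59 at the edge of the fold, which became 0.58 when mitochondrially encoded genes were left out. Serpina3n (29.2 and 30.8 TPM), Orm2 (4.84 and 4.42 TPM) and Orm1 (2.36 and 2.85 TPM) were within 1.5-fold. Saa3 was at 0.411 and 0.404 TPM and Apcs at 0.148 and 0.0583 TPM.

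Neutrophil markers stood beside Lcn2 in spleen. Their 10 genes summed to 1720.3 TPM in wild-type and to 3464 TPM in Tug1-/- spleen, and 8 of 10 were higher, led by the granule genes Mpo (13.1 and 44.5 TPM), Elane (20.8 and 67.7 TPM), Ngp (105 and 324 TPM) and Ltf (27.5 and 78.0 TPM). Retnlg (123 and 88.8 TPM) and Cxcr2 (30.2 and 26.7 TPM) were not past the fold.

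Hpx was the member with the lower mean in Tug1-/- spleen, at 1.25 TPM in wild-type and at 0.335 TPM in Tug1-/- samples, on a mean normalised count of 17.4. Other liver genes were lower there as well. Of 11 negative acute phase genes, 8 reached the minimum, 6 were lower and 0 higher, among them Alb, the albumin gene (16.4 and 0.0843 TPM), and Apoa1 (2.53 and 0.0234 TPM). Hepatocyte markers summed to 13.1 TPM in wild-type and to 2.85 TPM in Tug1-/- spleen, and Serpina3k of the Serpina3 cluster was at 2.01 TPM in wild type and listed at 0 in Tug1-/- spleen. In that cluster Serpina3b (1.60 and 4.70 TPM), Serpina3h (1.33 and 2.48 TPM) and Serpina3f (18.8 and 30.9 TPM) were higher. Mesothelium markers, from the outer lining of abdominal organs, summed to 49.2 and 28.0 TPM, and 4 of 4 were lower. Of the inducing cytokines, 2 of 6 with the minimum were lower and 0 higher in Tug1-/- spleen, Il1b (68.2 and 34.2 TPM) and Lif (1.54 and 0.916 TPM). The part of neutrophils, liver RNA, mesothelium and cytokines in the spleen values was not tested.

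In brain, 2 members reached the minimum. Serpina3n was at 32.1 TPM in both genotypes, with astrocyte markers at sums of 1327 and 1267 TPM. Lcn2 was at 1.51 TPM in wild-type and at 0.161 TPM in Tug1-/- brain, on a mean normalised count of 6.47. That made 0 of 2 members higher and 1 lower, where 2.19% of 17729 genes were higher and 3.94% lower. Neutrophil markers summed to 20.2 and 2.55 TPM, among them S100a9 (10.1 and 1.38 TPM), S100a8 (4.73 and 0.711 TPM) and Ngp (1.85 and 0.184 TPM), with Camp (1.43 TPM) and Retnlg (1.01 TPM) listed at 0 in Tug1-/- brain. Of these, S100a9 alone reached the minimum in both genotypes, and the others, like Lcn2, reached it through the wild-type group. Their part in the Lcn2 value was not tested. Hp (0.810 and 0.341 TPM), Hpx (0.811 and 0.749 TPM), Saa3 (0.0588 and 0.248 TPM), Saa2 (0.0902 and 0.0892 TPM) and Orm2 (0.205 TPM in wild type and listed at 0 in Tug1-/-) were below the minimum.

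MEFs were the sample type with the most inducing cytokines past the fold. Of 4 members with the minimum, 2 were higher in Tug1-/- MEFs and 0 lower, where 3.82% of 14824 genes were higher and 3.91% lower. Saa3, whose promoter holds the motif TTATGCAA, was at 0.300 TPM in wild-type and at 2.68 TPM in Tug1-/- MEFs, a log2 ratio of 2.79 on a mean normalised count of 39.7. It reached the minimum through the Tug1-/- group alone, and with 1 TPM added to both means in place of 0.1 its log2 ratio was smaller and below that of Orm1 in eyes (1.97). Hp was at 1.05 and 2.81 TPM. Hpx (2.53 and 2.10 TPM) and Serpina3n (1.96 and 1.73 TPM) were within 1.5-fold, and Lcn2 (0.0845 and 0.170 TPM) was below the minimum.

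Of 8 inducing cytokine genes, 6 reached the minimum in MEFs and 4 were higher: Il1b at 0.670 TPM in wild-type and at 14.8 TPM in Tug1-/- MEFs, Tnf at 0.949 and 14.2 TPM, Il1a at 1.17 and 9.44 TPM, and Il6 at 5.16 and 7.97 TPM. Nfkbia, the inhibitor that NF-kappaB itself induces, was at 40.6 and 123 TPM, and Cebpb at 16.1 and 25.3 TPM. The receptor genes Tlr2 (4.82 and 13.6 TPM) and Fpr2 (0.0418 and 1.44 TPM), which bind serum amyloid A, were also higher, as was the lipopolysaccharide receptor gene Cd14 (11.2 and 22.8 TPM).

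Macrophage markers were present in both MEF groups. The 8 markers summed to 559.9 TPM in wild-type and to 669 TPM in Tug1-/- MEFs, with 3 higher and 1 lower past the fold. The higher ones were Marco, a scavenger receptor of macrophages (0.0247 and 26.7 TPM), Lyz2 (183 and 342 TPM) and Adgre1 (19.8 and 29.8 TPM). Mrc1 was lower (16.9 and 10.6 TPM), and within the fold C1qa (132 and 99.7 TPM), C1qb (132 and 102 TPM), Cd68 (45.4 and 33.4 TPM) and Csf1r (30.6 and 25.0 TPM) had lower Tug1-/- means. Without Lyz2, the other 7 summed to 377 and 327 TPM. Mesothelium markers summed to 58.2 and 37.4 TPM, with Upk3b at 5.50 and 2.56 TPM. The part of these cells in the Saa3 value was not tested.

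**Figure D4:**
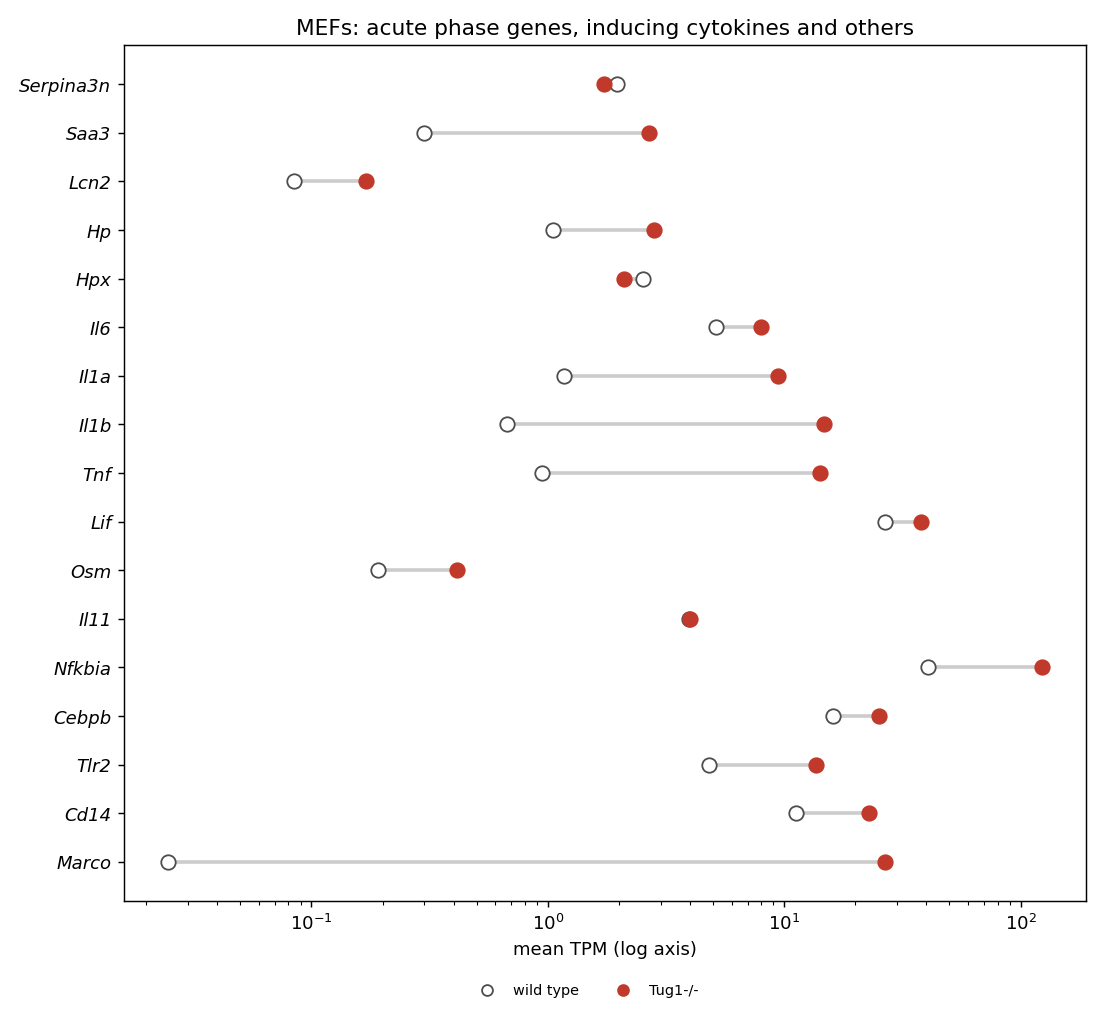
Mean TPM (log axis) in wild-type (open circles) and Tug1-/- MEFs (filled circles) for the 5 listed acute phase genes, 7 listed inducing cytokines, and Nfkbia, Cebpb, Tlr2, Cd14 and Marco. Saa3 and Hp lie to the right in Tug1-/- MEFs with Il1a, Il1b and Tnf, while Serpina3n and Hpx do not.

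Across the 8 tissues, Lcn2 and Hp were each higher in 5 and lower in 1 of the 7 tissues in which they reached the minimum. For Lcn2 the lower tissue was brain, and for Hp it was heart. Serpina3n was past the fold in 2 of 8 tissues, testes and prostate, both higher. Saa3 was higher in 2 of 3 tissues, Orm1 higher in 2 and lower in 1 of 5, Saa2 higher in 1 of 1, and Hpx lower in 1 of 5. Orm2 (0 of 4), Saa1 (0 of 2) and Apcs (0 of 1) were past the fold nowhere. Over all genes, pooled over the 8 tissues, 3.49% of values were higher and 3.70% lower. Both Saa3 values past the fold, Orm1 in prostate, Hpx in spleen and Lcn2 in brain reached the minimum through their higher group alone. For these the counts depend in part on the difference itself.

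**Figure D5:**
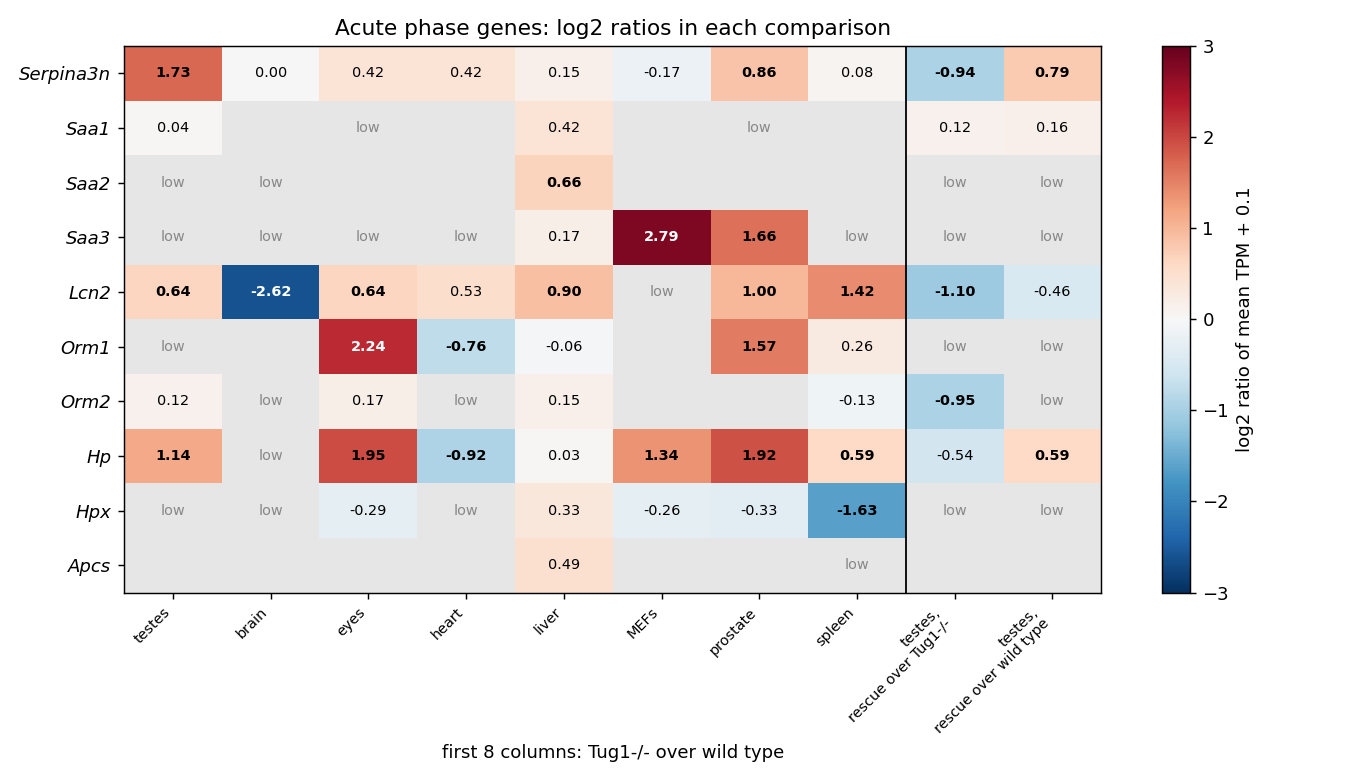
Log2 ratio of mean TPM + 0.1 for the 10 acute phase genes in 10 comparisons, the first 8 being Tug1-/- over wild type. Bold values are past 1.5-fold, "low" marks genes below 1 TPM in both groups, and empty grey cells are not listed. Hp and Lcn2 hold the most bold values, and no member is past the fold in one direction in all 8 tissues.

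The wider lists were counted over the 8 Tug1-/- over wild type comparisons, in which 3.49% of the values of all genes were higher and 3.70% lower. Inducing cytokines had 4 higher and 4 lower of 22 gene-by-tissue values with the minimum, the 4 higher ones all in MEFs. Cytokine receptors had 6 higher and 0 lower of 64, and signalling and transcription factors 10 higher and 0 lower of 107. Other positive acute phase genes had 19 higher and 3 lower of 97, and negative ones 4 higher and 8 lower of 42. Of these 8 lower values, 6 were in spleen, where hepatocyte markers were lower too. The others were Gc in testes and Igf1 in MEFs, and no negative gene was past the fold in liver. The Serpina3 paralogs had 13 higher and 1 lower of 27, receptors and clearance genes 12 higher and 0 lower of 58, and glucocorticoid-induced genes 16 higher and 0 lower of 47. Among the receptors, Cd163, which takes up haptoglobin with haemoglobin, was at 5.09 and 11.2 TPM in eyes, 3.16 and 8.81 TPM in prostate, 1.45 and 3.16 TPM in testes, 11.3 and 20.4 TPM in heart, and 50.0 and 76.3 TPM in spleen, all past the fold. It was within the fold in brain (2.89 and 2.79 TPM) and liver (7.46 and 10.7 TPM) and below the minimum in MEFs (0.145 and 0.0478 TPM). Values of 1 gene in several tissues are not independent, and tissues may come from the same mice.

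Genes with the most similar patterns were listed by Pearson's r, as a description over means that share tissues and libraries. Over the 17 group means, Hp and Orm1 were each other's most similar gene (r = 0.971, among 30081 genes, on log2 levels). The closest gene to Serpina3n was Trf, the transferrin gene (0.973), followed by Apoe (0.943). For Hpx it was Glyat (0.980), for Apcs Hrg (0.999), for Saa1 Abcg8 (0.995) and for Saa2 Inhbc (0.994), and each of these members was highest in liver. Saa3 had no gene above 0.844, and Lcn2 was nearest to Fam46c (0.944). Serpina3n was the one member with the minimum in 8 of 8 tissues, and its log2 ratios were most similar to those of Vwa5a (0.984), Idh1 (0.976) and Rsu1 (0.958) among 9774 genes.

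Orm1 and Orm2 are close copies. In the GENCODE transcripts (GRCm38), 45 of 675 windows of the read length in Orm1 (6.67%) also occurred in Orm2, and reads from such windows could not be placed uniquely by themselves. No such window was shared between Saa1, Saa2 and Saa3 (0 of 509 for Saa1 and Saa2). The deposited positions of the members on GRCm38 were chr12:104406729-104414329 for Serpina3n, chr7:46740497-46742980 for Saa1, chr7:46751790-46754313 for Saa2, chr7:46711998-46715700 for Saa3, chr2:32384633-32388252 for Lcn2, chr4:63344560-63348163 for Orm1, chr4:63362449-63365878 for Orm2, chr8:109575128-109579172 for Hp, chr7:105591613-105600137 for Hpx and chr1:172893961-172895041 for Apcs, all annotated as protein-coding genes.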

How the data were processed

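Polyadenylated RNA was sequenced from male mouse tissues and embryonic fibroblasts with an unstranded TruSeq kit. According to the study's methods, the authors aligned reads with STAR to GRCm38 (mm10 in the labels, base calling with CASAVA 1.8.2), counted uniquely mapped reads per GENCODE gene with featureCounts and dropped genes that had under 3 reads in each replicate. Whether counting used strand is not given in the sources used here. The deposited TPM values are the authors' means over the samples of a group, and the means of DESeq2-normalised counts over all samples of a tissue were deposited for every tissue except testes. These counts show depth and were used for nothing else. Totals per library are not given, so depth per sample is unknown.

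The tables also hold the authors' own comparisons (fold changes, statistics, standard errors, p-values and calls, 11 columns for testes and 7 for the other tissues), which were not used. All columns of values per group were used, and there were 0 columns of values per sample.

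Log2 ratios used a pseudocount of 0.1 TPM. A gene past the fold differed by more than 1.5-fold and reached 1 TPM in either group. Because means carry no replicate spread and the authors' statistics were not used, there was no test and no p-value. The rule was checked on simulated means (Python 3.11.15, numpy 2.4.6, pandas 2.3.3, matplotlib 3.10.9). The members, gene lists, marker lists and motifs were chosen with earlier results of these data known. Named from a list were at most 4 genes per comparison, those past the fold with the largest ratios, plus exceptions marked as such or given because they belong to the pathway described (Il6, Tnf, Cd163, Cebpa, Cebpb, Socs3, Adipoq, Plin1) or not past the fold. The neutrophil marker S100a8 was named in addition in brain. Similar genes were the 3 with the highest Pearson's r over group means and the 5 highest over log2 ratios, and unlisted genes counted as 0 TPM for the former. The search for shared windows between transcripts and the macrophage marker sum without Lyz2 were added after the data were seen. Alternatives were other pseudocounts, minimums and folds, centring on the median of all genes, and leaving out mitochondrially encoded genes.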

Additional observations from a re-analysis of the deposited data

How the results depend on the processing

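With 79 log2 ratios of members under each of 8 alternatives, none changed sign where it had been past the fold. A pseudocount of 0.01 TPM changed no call, a pseudocount of 1 TPM ended 6, a minimum of 5 TPM ended 11, a fold of 2 ended 12, and centring on the median of all genes and leaving out mitochondrially encoded genes ended 1 each. Without a minimum, and with a fold of 1.2, 10 more values passed. The number of members past the fold moved by more than 1.5 times as follows, each beside the share of all genes past it in either direction. With a pseudocount of 1 TPM it was 1 in heart (lower, 2.39% of all genes), liver (higher, 3.54%) and rescue over wild-type testes (higher, 4.80%). Without a minimum it was 4 in brain, 1 higher and 3 lower (12.6%), and 4 in rescue over wild type, 2 higher and 2 lower (12.5%). With a minimum of 5 TPM it was 0 in brain (1.64%) and MEFs (3.21%), 1 in heart (lower, 2.08%), liver (higher, 3.86%) and rescue over wild type (higher, 3.86%), and 3 in prostate (higher, 3.64%). With a fold of 2 it was 0 in heart (1.67%), liver (1.90%) and rescue over wild type (3.77%) and 1 in rescue over Tug1-/- (lower, 1.96%). With a fold of 1.2 it was 5 in eyes, 4 higher and 1 lower (28.9%), 4 in heart, 2 higher and 2 lower (18.6%), and 5 in liver, all higher (23.0%). Centred, it was 1 in rescue over wild type (higher, 7.89%). A higher minimum or fold admits fewer genes by construction, and the other causes were not tested.

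No paired analysis was possible because the tables hold group means and no values per sample. For the same reason leaving out each replicate could not be run. Members near 1 TPM rest on few reads, as the mean normalised counts of 6.47 (Lcn2 in brain), 15.3 (Orm1 in prostate) and 17.4 (Hpx in spleen) show, and whether their differences exceed the spread between mice cannot be told from means.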
